A study of Rattus norvegicus with 29 samples.

Results

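The livers of 12 vehicle-dosed rats were compared across time: 6 animals killed on day 29 against 6 killed on day 8. They are 12 of the 29 animals of a study of PMCol (pentamethylchromanol), a chromanol related to vitamin E, and they were chosen by their sample titles, which name them as controls of each day. No animal of this comparison received the compound, so the comparison shows what differed in the control liver itself over the interval against which the compound was judged.

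All 29 animals were male Sprague-Dawley rats, supplied at 6 to 7 weeks of age and kept on a 12-hour light cycle, and no genetic change is named in the labels. The vehicle groups received 1% methylcellulose in water by oral gavage once a day, as 7 doses before the kill on day 8 or 28 doses before the kill on day 29. The other groups, used here for comparison, received PMCol in the same vehicle: 2000 mg/kg for 7 doses (6 animals) or 28 doses (5 animals), and 200 mg/kg for 28 doses (6 animals). The left liver lobe was sampled, and 1 Affymetrix whole-transcript array was run per animal. The day 29 animals were 21 days older at kill, had received more gavages and were killed on another day, and these differences cannot be told apart. The labels give no processing dates, so a batch tied to the day of kill cannot be told apart from time either.

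Kupffer cells are the resident macrophages of the liver. They line the sinusoids beside the endothelial cells and clear particles, complement-coated material and old erythrocytes from portal blood. Hepatocytes hold the liver's metabolic programmes, among them fatty acid oxidation under the nuclear receptor PPAR-alpha, detoxification under NRF2 and the xenobiotic receptors CAR and PXR, and the sex-dependent expression set by the rhythm of growth hormone. In young male rats several of these programmes still mature while body growth slows.

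The deposited values are signals on a log scale, read here as log2 since the sources used here do not give the base, and the folds below hold if that reading is right. They are centred per transcript cluster, so that 0 is a cluster's median over all 29 animals; a transcript cluster is the array's unit for 1 gene or transcript locus. Each gene's differences between animals can be read, but not whether 1 gene is expressed above another. The rounding of the values gives a rough mark of a bright cluster, a stored signal of 8 or more. It is read from the animals whose values carry enough decimals, and a lower signal in a single animal can escape it. This mark held for 18 of 18 measured hepatocyte markers, 8 of 24 Kupffer cell and macrophage markers, 0 of 24 T, B and NK cell markers, 0 of 15 neutrophil and monocyte markers, and 1 of 21 markers of pancreas, muscle, fat and mesothelium. The defining markers of hepatocytes thus all carried the mark.

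Vehicle day 29 animal 2 stood apart from its group. Its array correlated with the day 8 vehicle arrays at a mean r of 0.41 and with the other day 29 vehicle arrays at 0.21. Over the 2141 clusters that passed the test when it was left out, its median position was 0.09 on a scale on which the day 8 mean is 0 and the mean of the other day 29 animals is 1, and 83.6% of these clusters lay nearer the day 8 mean. Each of the other 5 day 29 animals, placed in the same way over the clusters called without it, had a median position between 0.79 and 1.10. Animal 2 was kept in all main values, and results that rest on it are given with and without it. Animal 1 of day 29 had the widest array, with a standard deviation over clusters of 0.287 against 0.148 to 0.194 in the other vehicle animals.

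Over 21 days 746 of 27342 clusters changed in the vehicle livers at an adjusted p under 0.05 (limma, Benjamini-Hochberg), which is 2.73% of those tested. Of these, 263 (0.962%) were higher and 483 (1.77%) lower at day 29. Most changes were small: 5 rises (0.0183%) and 15 falls (0.0549%) reached 2-fold. The values of the 6 day 29 animals did not overlap those of the 6 day 8 animals for 148 clusters that were higher (0.541%) and 193 that were lower (0.706%). The median difference over all clusters was 0.00.

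The number of calls depended on which animals were in the fit. Without day 29 animal 2 the test called 818 clusters higher (2.99%) and 1323 lower (4.84%). Leaving out another single animal gave between 254 and 723 calls, with the fewest, 254, without day 29 animal 5 or without day 29 animal 6. It was 297 without day 8 animal 2, 298 without day 8 animal 4, 314 without day 8 animal 6, 398 without day 29 animal 1 and 451 without day 29 animal 4. A fit of the 12 vehicle animals alone called 54 clusters higher (0.197%) and 82 lower (0.3%). That fit takes the spread from the vehicle animals only, and why it called fewer clusters was not tested. After quantile normalization 11 of the 103 named genes that were called no longer passed, namely Abcc3, Gsta3, Ces2c, Prlr, Lox, Lpin1, Pnrc1, Gpat3, Snx10, Tagln and Rhbg, and Nr1d1 passed as higher.

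**Figure D1:**
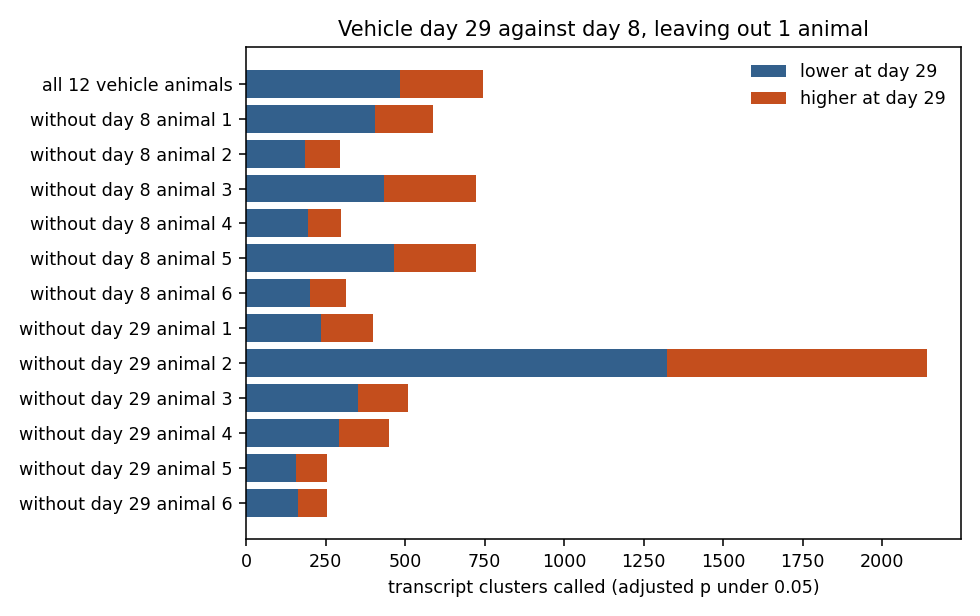
Number of transcript clusters called between vehicle day 29 and vehicle day 8 (horizontal axis) with all animals and with each vehicle animal left out in turn; blue is lower and orange higher at day 29. The count rose from 746 to 2141 without day 29 animal 2 and fell to 254 without day 29 animal 5 or 6.

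Kupffer cell and macrophage markers were the list with the largest share of falls. Among the 24 that were measured, 14 fell and 0 rose, against 1.77% of all clusters that fell, and all 24 differences were negative. The median difference was -0.73 on the log2 scale, against 0.00 over all clusters. Markers of 1 cell type vary together from animal to animal, so these 14 are not independent observations. In bulk tissue, fewer cells of a type and less RNA per cell cannot be told apart.

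The stretches of sequence next to these genes are shown because the markers moved together; the letters searched were a core bound by PU.1, the transcription factor that macrophages need. RefSeq (assembly GRCr8) gave a promoter window for 19 of the 24 markers. The letters GAGGAA, on either strand, stand in the 250 bases before the start of 15 of these 19 genes; 23.2% of all 27457 promoters of the table hold them. This core was chosen after its matches had been seen, so the counts are a description and nothing is read from them. The core stands in 8 of the 12 windows of markers that fell and in 7 of the 7 windows of markers that did not pass. Which markers passed depended on the animals fitted, so nothing is read from this split either. The longer forms GAGGAAGT, which contains the core, and GGAAGTG, which overlaps it, were found in 2 and 5 of the 19, against 2.04% and 8.45% of all promoters. A match describes the letters only and is not a binding site. The windows of 4 markers that fell, picked among those with the core, follow, 5′ to 3′ along the gene, with GAGGAA or its reverse complement TTCCTC in capitals.
C1qb (chr5:154407828-154408077, minus strand): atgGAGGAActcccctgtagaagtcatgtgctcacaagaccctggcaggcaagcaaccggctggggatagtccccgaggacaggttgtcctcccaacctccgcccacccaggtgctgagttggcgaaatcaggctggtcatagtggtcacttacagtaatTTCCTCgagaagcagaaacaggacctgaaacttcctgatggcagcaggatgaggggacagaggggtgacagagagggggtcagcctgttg
Ctss (chr2:185775146-185775395, plus strand): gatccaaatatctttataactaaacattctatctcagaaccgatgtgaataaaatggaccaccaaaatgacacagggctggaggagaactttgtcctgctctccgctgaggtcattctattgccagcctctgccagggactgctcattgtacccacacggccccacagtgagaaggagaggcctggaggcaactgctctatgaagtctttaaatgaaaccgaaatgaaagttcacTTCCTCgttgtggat
Adgre1 (chr9:2329190-2329439, plus strand): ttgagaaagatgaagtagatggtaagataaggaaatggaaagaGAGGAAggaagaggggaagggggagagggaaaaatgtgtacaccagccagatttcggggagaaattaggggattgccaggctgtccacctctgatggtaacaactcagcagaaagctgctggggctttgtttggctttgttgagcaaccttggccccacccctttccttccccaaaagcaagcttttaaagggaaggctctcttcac
Mrc1 (chr17:82157475-82157724, plus strand): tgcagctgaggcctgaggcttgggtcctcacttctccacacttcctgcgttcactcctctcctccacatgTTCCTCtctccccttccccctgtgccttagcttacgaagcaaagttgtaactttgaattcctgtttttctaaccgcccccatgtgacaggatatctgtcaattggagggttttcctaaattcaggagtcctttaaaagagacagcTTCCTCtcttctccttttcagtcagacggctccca
C1qb and Mrc1 each hold the core at 2 places, 247 and 90 bases before the start in C1qb and 180 and 35 in Mrc1, counted to the first base of the match. In Ctss it stands 15 bases and in Adgre1 207 bases before the start.

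Vsig4, the complement receptor by which Kupffer cells capture coated bacteria, showed the largest fall of any named gene. Its centred log2 value was 0.60, 1.12 and 1.71 (lowest, median, highest) in the 6 day 8 animals and -1.45, -0.66 and 1.08 in the 6 day 29 animals. The difference was -1.70 ± 0.37 (standard error), a 3.26-fold fall with adjusted p = 0.0152 in limma. The highest day 29 value was that of animal 2, inside the day 8 range; the other 5 day 29 animals lay below every day 8 animal. Without animal 2 the difference was -2.03.

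The subunits of C1q, the complement starter that liver macrophages make, fell together. C1qb ran from 0.53 over a median of 0.96 to 1.47 at day 8 and from -0.76 over -0.42 to 0.82 at day 29. It differed by -1.26 ± 0.25 (adjusted p = 0.01 in limma), C1qa by -0.92 ± 0.19 and C1qc by -0.72 ± 0.17. Here too day 29 animal 2, at 0.82 for C1qb, lay within the day 8 range and apart from the rest of its group.

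Csf1r, the receptor for the growth factor on which macrophages depend, ran from 0.44 over a median of 0.84 to 1.48 at day 8 and from -0.71 over -0.45 to 0.99 at day 29, a difference of -1.18 ± 0.27. Clec4f, a lectin that in rodents marks Kupffer cells, ran from 0.43 over 0.97 to 1.33 at day 8 and from -0.30 over -0.16 to 0.89 at day 29, a difference of -0.94 ± 0.24. For both genes the day 29 maximum was again animal 2.

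The other markers that fell cover uptake and digestion. They were Cd5l (-1.22), a secreted macrophage protein, Ctss (-1.16), a lysosomal protease, Cd163 (-1.11), the scavenger receptor for haemoglobin, Adgre1 (-1.11), the F4/80 antigen, Cd68 (-0.94), Slc11a1 (-0.89), a metal transporter of phagosomes, Mrc1 (-0.75), the mannose receptor, and Marco (-0.51), a scavenger receptor. Among genes outside the list, Cybb (-1.32), the catalytic subunit of the phagocyte oxidase, Cfp (-1.02), the complement regulator properdin, Cd53 (-0.95), a leukocyte tetraspanin, and Adgre4 (-0.99) fell as well. So did Ptgs1 (-0.94), the constitutive cyclooxygenase, and Hpgds (-0.92), a prostaglandin D synthase.

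Some members of the list did not pass. Tyrobp (-0.59), Laptm5 (-0.52), Ptprc (-0.44), Aif1 (-0.32) and Fcgr3a (-0.22) did not pass in the main fit but passed in the fit without animal 2. Lyz2 (-0.24 ± 0.27), the lysozyme of myeloid cells, Cd14 (-0.16 ± 0.13), Cd74 (-0.33 ± 0.19), Itgam (-0.08 ± 0.07) and Hmox1 (-0.20 ± 0.18) passed in neither. Cd74 and Hmox1 are also made by cells other than macrophages. MHC class II genes, another mark of antigen-presenting cells, held 0 calls among 8, with a median of -0.21.

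The mean over the 24 markers gives each animal's position. At day 8 it was lowest at 0.22 and highest at 0.94 among the 6 vehicle animals, with a group mean of 0.56 ± 0.26 (SD, n = 6). At day 29 it ranged from -0.46 to -0.15 in 5 animals and was 0.54 in animal 2, with a group mean of -0.17 ± 0.36 (SD, n = 6). The groups given PMCol had means of -0.08 (2000 mg/kg, day 8), -0.15 (2000 mg/kg, day 29) and -0.11 (200 mg/kg, day 29). The day 8 vehicle group thus had the highest mean of the 5 groups, and 5 of the 6 day 29 vehicle animals lay near the PMCol groups.

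**Figure D2:**
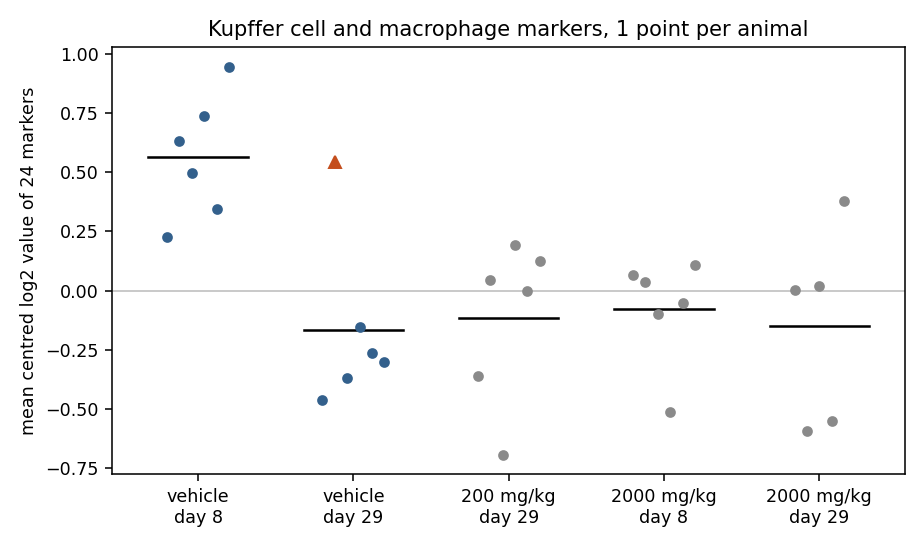
Mean centred log2 value of the 24 measured Kupffer cell and macrophage markers (vertical axis, 0 is the median over 29 animals for each gene) in each animal of the 5 groups; lines are group means, blue points are vehicle animals, grey points PMCol animals and the orange triangle is vehicle day 29 animal 2. The 6 day 8 vehicle animals lie between 0.22 and 0.94, and 5 of the 6 day 29 vehicle animals lie below 0.

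This group of calls depended on the animals fitted, while its direction did not. Leaving out 1 animal gave between 5 and 19 falls and 0 rises among the 24, with 5 without day 8 animal 2, 4 or 6 or day 29 animal 5 or 6, 6 without day 29 animal 1 or 3, 8 without day 29 animal 4, and 19 without day 29 animal 2. The fit of the vehicle animals alone called 2 of the 24 lower, C1qa and C1qb, against 0.3% of all clusters. With array weights and all animals kept, 18 of the 24 were lower, against 1027 of all 27342 clusters. The median stayed between -0.66 and -0.87 over the fits that left out 1 animal.

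Over the same interval the animals given 2000 mg/kg showed 0 calls among the 24 markers, with a median of -0.03. The test of the difference between the intervals called 0 of the 24 with all animals (0.775% of all clusters in either direction). Without vehicle day 29 animal 2 it called 3 lower (1.2% of all clusters).

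Folr2 and Lilra5, genes of macrophages or leukocytes outside the list, passed that difference test. Both were chosen after their values had been seen, so they add nothing to the result of the list. Folr2, a folate receptor of resident macrophages, fell by 0.88 in the vehicle animals and differed by 0.12 in the 2000 mg/kg animals (adjusted p of the difference between intervals = 0.0363, limma). Lilra5, an activating receptor of myeloid cells, fell by 0.77 against a difference of 0.18 (adjusted p = 0.0307, limma).

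Other non-parenchymal cells were read in the same way. Of 11 liver endothelial markers 4 fell and 0 rose, with a median of -0.27, against 1.77% of all clusters that fell. Without animal 2 the count was 6 (4.84% of all clusters), and the fit of the vehicle animals alone called 2, Cdh5 and Emcn (0.3% of all clusters). Cdh5, the cadherin of endothelial junctions, ran from 0.13 over a median of 0.44 to 0.79 at day 8 and from -0.49 over -0.27 to 0.25 at day 29, a difference of -0.67 ± 0.13. Oit3, made by sinusoidal endothelium, differed by -0.76 ± 0.16, Emcn by -0.52 ± 0.11, and Lyve1, the hyaluronan receptor of sinusoids, by -0.47 ± 0.11. All 6 endothelial genes called without animal 2 had that animal nearer the day 8 mean, as had all 19 macrophage genes called without it; over all clusters called without animal 2 the share was 83.6%.

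Lymphocyte markers held 1 call among 24 (1.77% of all clusters fell), Cd4 (-1.03 ± 0.25), which in rats is carried by macrophages as well as by T cells. Neutrophil and monocyte markers held 0 of 15, bile duct markers 0 of 11, and markers of pancreas, muscle, fat and mesothelium 0 of 21. Their medians lay between -0.11 and 0.03.

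Among erythrocyte markers 1 of 10 fell (1.77% of all clusters fell) and 0 rose, with a median of -0.09 and 8 of 10 differences negative. The mean of the list was 0.26 in the day 8 and -0.07 in the day 29 vehicle animals. Leaving out 1 animal gave between 1 and 4 falls in the list, and between 157 and 1323 over all 27342 clusters. Slc4a1, the anion exchanger of the erythrocyte membrane, ran from 0.07 over a median of 0.36 to 0.72 at day 8 and from -0.46 over -0.29 to -0.04 at day 29, with no overlap (-0.65 ± 0.12, adjusted p = 0.00556, limma). Slc4a1 was the sole call of the list in the main fit. Hbb, with medians of 0.97 at day 8 and -0.21 at day 29, and Alas2 (-0.96 ± 0.29) varied more and did not pass. Animal 2 lay with the day 29 group for Slc4a1, unlike its position for the macrophage genes. The part of erythrocyte content in other results was not tested.

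Alox15, a lipoxygenase that oxidises linoleic and arachidonic acid, had the largest fall among named genes whose groups did not overlap. Its values were 0.53, 0.89 and 1.84 (lowest, median, highest) at day 8 and -0.76, -0.40 and 0.15 at day 29. The difference was -1.38 ± 0.19, a 2.61-fold fall (adjusted p = 0.000259, limma). Animal 2, at -0.40, lay with its own group.

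Genes of fatty acid handling in hepatocytes fell by amounts that, for several of them, did not rest on single animals. Abcd2 encodes a peroxisomal importer of very long chain acyl-CoA. It was -0.09, 0.06 and 0.19 (lowest, median, highest) at day 8 and -1.29, -1.09 and -0.96 at day 29. The difference was -1.17 ± 0.13, a 2.25-fold fall (adjusted p = 2.35e-05, limma), and animal 2, at -1.06, lay in the middle of its group.

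Acsf2, a mitochondrial acyl-CoA synthetase, ran from 0.46 over a median of 0.94 to 1.18 at day 8 and from -0.29 over 0.07 to 0.19 at day 29. It fell by 0.93 ± 0.13 (adjusted p = 0.000259, limma) with no overlap. Vnn1, a pantetheinase that releases pantothenate and a well-known PPAR-alpha target, ran from -0.13 over 0.04 to 0.25 at day 8 and from -1.09 over -0.63 to -0.15 at day 29. It fell by 0.67 ± 0.10, also with no overlap, although animal 2 was its highest day 29 value. Abcd2, Acsf2 and Vnn1 passed in all 12 fits that left out 1 animal and in the fit of the vehicle animals alone.

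Falls were also seen in steps that build or export lipid. Mttp, which loads lipid onto apolipoprotein B, was -0.07 to 0.06 at day 8 and -0.54 to -0.14 at day 29, and fell by 0.36 ± 0.05. Elovl2, an elongase of polyunsaturated fatty acids, fell by 0.67 ± 0.12, and Me1, the cytosolic malic enzyme that supplies NADPH, by 0.62 ± 0.12. Gpat3 (-0.82 ± 0.19), Agpat2 (-0.41 ± 0.11) and Dgat1 (-0.42 ± 0.10), which act on the way to triglyceride, fell too, as did Gys2 (-0.59 ± 0.16), the liver glycogen synthase. The calls on Agpat2 and Gys2 each held in 4 of the 12 fits that left out 1 animal, and those on Gpat3 and Dgat1 in 9. None of Gpat3, Agpat2, Dgat1 and Gys2 passed in the fit of the vehicle animals alone. Gpat3 and Dgat1, like Mttp, were named after their values had been seen.

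By list, 4 of 27 PPAR-alpha targets fell (Vnn1, Acot2 by 0.53, Hadhb by 0.32 and Creb3l3 by 0.23) and 0 rose, with a median of -0.19 and 24 of 27 differences negative, against 1.77% of all clusters that fell. The fit of the vehicle animals alone called 1, Vnn1 (0.3% of all clusters). Without animal 2 the count was 11 (4.84% of all clusters), and in all 11 that animal lay nearer the day 8 mean, as it did in 83.6% of all clusters called without it; the part of macrophage content in these values was not tested. The genes added were Cpt1a (-0.23), the entry step of mitochondrial oxidation, Cpt2 (-0.15), Ehhadh (-0.23), Cyp4a1 (-0.20), Acadvl (-0.13), Plin2 (-0.35) and Crat (-0.32), with the values of the full fit in parentheses. Acot2 belongs to a cluster of near-identical thioesterase genes with Acot1 and Acot5, so its signal may be shared with them; Acot5 fell by 0.52, and Acot1, at -0.82 ± 0.34, did not pass.

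Of 23 genes of fatty acid synthesis, 3 fell (Elovl2, Me1, Agpat2), against 1.77% of all clusters. In the list 1 gene rose (0.962% of all clusters rose), Lpin1 (0.75 ± 0.21), a phosphatidate phosphatase that also serves as a coactivator in fasting. Lpin1 passed in 3 of the 12 fits that left out 1 animal. The fit of the vehicle animals alone called 2 other members lower, Elovl6 (-0.57) and Cd36 (-0.59), and none of these 4. Among 20 cholesterol synthesis genes 0 were called, with a median of -0.14.

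**Figure D3:**
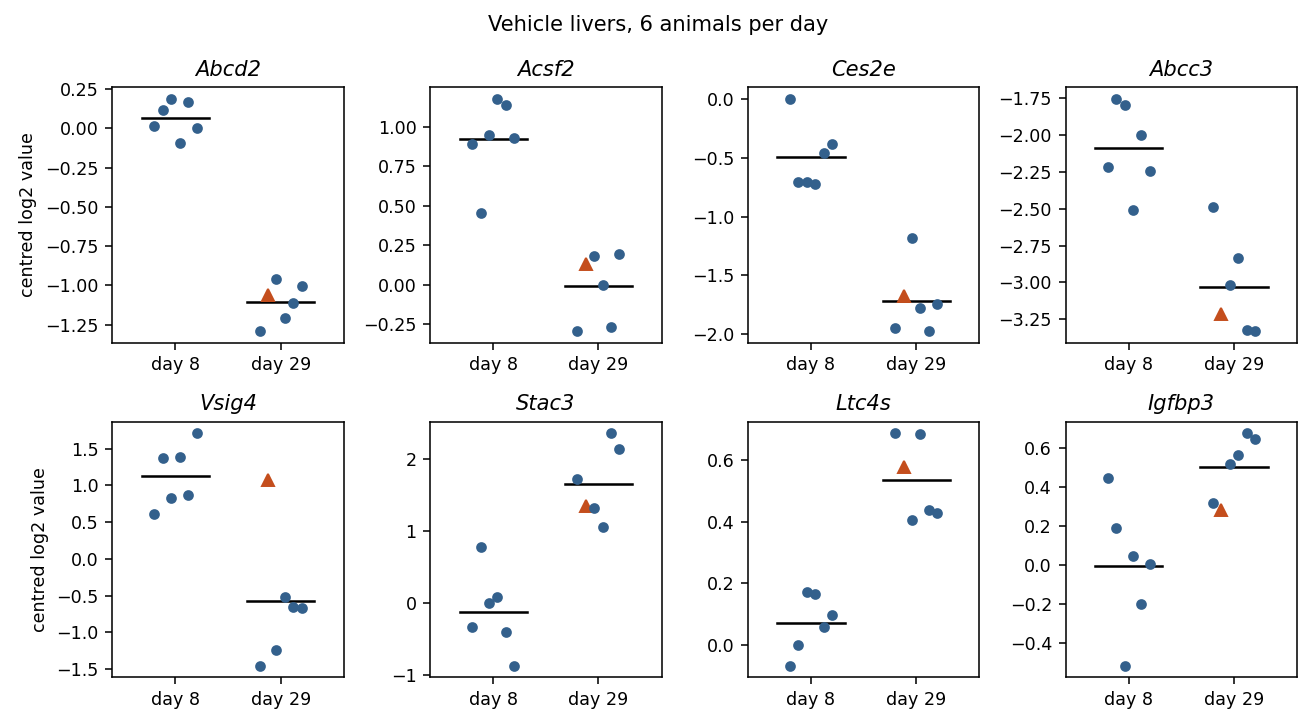
Centred log2 value (vertical axis, own scale in each panel, 0 is the gene's median over 29 animals) of 8 genes in the 6 vehicle animals of day 8 and the 6 of day 29; lines are group means and the orange triangle is day 29 animal 2. The triangle lies with the other day 29 animals in the panels of Abcd2, Acsf2, Ces2e, Abcc3, Stac3 and Ltc4s and with the day 8 animals in that of Vsig4.

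Of the lists of xenobiotic response, 4 of 26 NRF2 targets, 1 of 19 CAR and PXR targets and 0 of 8 aryl hydrocarbon receptor targets fell, and 0 rose in each, against 1.77% of all clusters that fell. Ces2e, a liver carboxylesterase, was -0.72, -0.58 and 0.00 (lowest, median, highest) at day 8 and -1.97, -1.76 and -1.18 at day 29. It fell by 1.22 ± 0.12, or 2.33-fold, with adjusted p = 1.6e-06 (limma), the smallest of the named genes, and the groups did not overlap. Related carboxylesterases are similar in sequence, so part of its signal may be shared.

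Abcc3, the basolateral exporter of conjugates and bile acids, ran from -2.51 over a median of -2.11 to -1.75 at day 8 and from -3.33 over -3.12 to -2.49 at day 29. It fell by 0.95 ± 0.13 (adjusted p = 0.000259, limma), and the groups overlapped by 1 animal of each day. Both Ces2e and Abcc3 passed in all 12 fits that left out 1 animal. The call on Abcc3 rested on the scaling: after quantile normalization its difference was -0.41 (adjusted p = 0.243, limma), while that of Ces2e still passed.

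Gsta3, a glutathione transferase, fell by 0.71 ± 0.17, Ces2c by 0.50 ± 0.14, and Cbr1, a carbonyl reductase, by 0.46 ± 0.11, all with overlapping groups. After quantile normalization Gsta3 (-0.29) and Ces2c (-0.23) no longer passed. With Me1 and Abcc3, Gsta3 and Cbr1 made up the 4 falls among NRF2 targets, whose median was 0.00; the fit of the vehicle animals alone called 1 of them, Abcc3. Ces2c was the call among CAR and PXR targets, and that fit called Abcb1a (-0.41) in its place. Nqo1, the quinone reductase most used to read NRF2, differed by -0.29 ± 0.11 and did not pass. Cyp2b1 (-0.59 ± 0.17), the classic CAR target, did not pass in the main fit but passed without animal 2. Cyp1a1 (0.04 ± 0.38), the classic target of the aryl hydrocarbon receptor, did not pass.

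Asns, the asparagine synthetase of the amino acid response, was -0.41, -0.18 and 0.41 (lowest, median, highest) at day 8 and -1.24, -0.94 and -0.63 at day 29, a fall of 0.79 ± 0.19 with no overlap. It was the single call among 29 genes of ER and integrated stress (1.77% of all clusters fell). Tuba4a, an alpha-tubulin chosen after its value had been seen, fell by 0.90 ± 0.14 with no overlap. Ephx2, the soluble epoxide hydrolase, fell by 0.96 ± 0.24, but day 8 animal 3 at 2.54 stood far above the other day 8 animals, and the call held in 7 of the 12 fits that left out 1 animal. Cyfip2, a regulator of actin assembly, fell by 0.90 ± 0.13 with no overlap. Rhbg, an ammonium transporter of pericentral hepatocytes, fell by 0.63 ± 0.17.

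Of 15 male-predominant genes 2 rose and 0 fell (0.962% of all clusters rose), and of 14 female-predominant genes 2 fell and 0 rose (1.77% of all clusters fell). Stac3, an adaptor protein best known from muscle that is male-predominant in rat liver, had the largest rise of the named genes. Its values were -0.87, -0.16 and 0.79 (lowest, median, highest) at day 8 and 1.06, 1.54 and 2.36 at day 29, with no overlap. The rise was 1.78 ± 0.36, or 3.43-fold (adjusted p = 0.0109, limma). Gstm2, a glutathione transferase, rose by 0.19 ± 0.05, but that call held in 2 of the 12 fits that left out 1 animal and not in the fit of the vehicle animals alone. The median of the male-predominant list was 0.18.

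Cyp2c11, the male-specific P450 that follows pulsatile growth hormone, was -0.05, 0.02 and 0.14 at day 8 and -0.09, 0.13 and 0.24 at day 29 (lowest, median, highest). The groups overlapped and the difference of 0.09 ± 0.16 did not pass. That standard error takes in the spread of all 5 groups, PMCol animals included, and not of the vehicle animals alone. The female-predominant genes that fell were Prlr (-0.91 ± 0.25), the prolactin receptor, and Cyp17a1 (-0.87 ± 0.22), a steroid hydroxylase, and the median of that list was -0.10. The call on Prlr held in 2 and that on Cyp17a1 in 5 of the 12 fits that left out 1 animal. The fit of the vehicle animals alone called Prlr lower and Hao2 (0.26), a peroxisomal oxidase, higher.

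In the growth hormone and IGF axis 1 of 21 genes rose (0.962% of all clusters) and 1 fell (1.77% of all clusters). Igfbp3, the main carrier of IGF in blood, ran from -0.51 over a median of 0.03 to 0.45 at day 8 and from 0.28 over 0.54 to 0.67 at day 29, and rose by 0.50 ± 0.11 with overlapping groups. Igf2r, which takes IGF2 to the lysosome, fell by 0.31 ± 0.07 with no overlap. Igf1 (0.05 ± 0.05) and Ghr (0.05 ± 0.10), the receptor for growth hormone, did not pass. The standard errors put a 2-fold change of either gene outside the 95% interval of its difference.

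Among the further rises, Lrtm2, a leucine-rich repeat membrane protein, was -0.69, -0.08 and 0.60 (lowest, median, highest) at day 8 and 0.78, 1.23 and 1.57 at day 29, and rose by 1.31 ± 0.21 with no overlap. Il1rn, the interleukin-1 receptor antagonist, ran from -0.84 to 0.14 at day 8 and from 0.32 to 1.49 at day 29, and rose by 1.05 ± 0.21. Hamp, which encodes the iron hormone hepcidin, rose by 0.95 ± 0.25. Its spread was the wider at day 8, with values from -1.73 to 0.20 against -0.01 to 0.30 at day 29, and the call held in 3 of the 12 fits that left out 1 animal.

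Klf15, a transcription factor of amino acid use in fasting, rose by 0.61 ± 0.12 with no overlap. Tat, the tyrosine aminotransferase, rose by 0.25 ± 0.06, and Arg1, the last enzyme of the urea cycle, by 0.39 ± 0.10. Apoa2, an apolipoprotein of high-density lipoprotein, rose by 0.50 ± 0.13. The call on Arg1 held in 3, that on Apoa2 in 4 and that on Tat in 11 of the 12 fits that left out 1 animal. None of Arg1, Apoa2 and Tat passed in the fit of the vehicle animals alone. Of 18 hepatocyte markers, Apoa2 and Tat were the 2 called (0.962% of all clusters rose), and the list's median was 0.04. Alb, the albumin gene, differed by 0.05 ± 0.04.

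Hamp, Stat3 (0.32 ± 0.08) and Tat were 3 rises among 26 acute phase genes (0.962% of all clusters rose), with a median of 0.09. The count was 6 without day 29 animal 2, 1 without day 29 animal 6 or day 8 animal 1 or 2, 0 without day 29 animal 5, and 0 in the fit of the vehicle animals alone. Stox2 rose by 0.58 ± 0.08 with no overlap, and the other cluster of the gene rose by 0.37 ± 0.06. The rest of the 25 largest rises lay between 0.49 (Net1) and 0.90 (Znf57l), and the others were Sem1 (0.81), Mybl1 (0.77), Dab1 (0.68), Snrpd1 (0.64), a core protein of spliceosomal particles, P2rx7 (0.63), an ATP-gated channel, Cep85l (0.59), Trak2 (0.55), Efna5 (0.54), Simc1 (0.53), Tgif1 (0.53), Pnrc1 (0.52), Pdlim1 (0.52) and Tmem256 (0.51). Of these 15, P2rx7, Znf57l, Efna5, Tgif1 and Pdlim1 had groups that did not overlap.

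Of 32 stellate cell and matrix genes 2 rose (0.962% of all clusters rose): Lox (1.09 ± 0.29), the crosslinking enzyme of collagen and elastin, and Tagln (0.37 ± 0.10), an actin-binding protein of contractile cells. The values of Lox ran from -0.48 to 1.10 at day 8 and from 0.04 to 2.21 at day 29, and the call held in 5 of the 12 fits that left out 1 animal. That on Tagln held in 2 of the 12, and neither was made in the fit of the vehicle animals alone. The collagen genes Col1a1 (0.03 ± 0.09) and Col3a1 (0.09 ± 0.11) did not pass.

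No call was made in the lists of dividing cells, fetal liver or interferon. The mark of a stored signal of 8 or more held for 2 of 40 cell cycle, 3 of 20 fetal and 11 of 34 interferon genes. Most of these genes were thus not bright, and differences of dim genes may be understated. Of 40 cell cycle genes 0 passed, with a median of -0.04; Top2a, which resolves DNA tangles in dividing cells, differed by -0.21 ± 0.07, and without animal 2 Cdc20 and Tpx2 were lower. Of 20 fetal and early postnatal genes 0 passed, with Afp at -0.03 ± 0.08 and H19 at -0.08 ± 0.10. Among 34 interferon response genes there were also 0 calls, and the median was -0.12.

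Immediate early genes, which respond within minutes to handling and injury, held 0 calls among 31, although 27 of 31 differences were positive and the median was 0.27. Jun (0.88 ± 0.30), Klf6 (0.71 ± 0.22), Fos (0.62 ± 0.26), Egr1 (0.55 ± 0.31) and Atf3 (1.24 ± 0.60) varied widely between animals. Without animal 2, Egr2, Klf6 and Ccn2 passed as higher, and in the fit of the vehicle animals alone Jun and Klf6 did. Of 15 clock genes 0 passed: Nr1d1 differed by 0.75 ± 0.24, Nfil3 by 0.72 ± 0.21, Dbp by -0.20 ± 0.19 and Per2 by 0.02 ± 0.16. Without animal 2, Nr1d1, Nfil3 and Tef passed as higher, and in the fit of the vehicle animals alone Nfil3 did. The hour of kill is not given in the sources used here. Cyp7a1, whose enzyme sets the pace of bile acid synthesis and which also cycles with the day, differed by 0.80 ± 0.34 and did not pass.

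**Figure D4:**
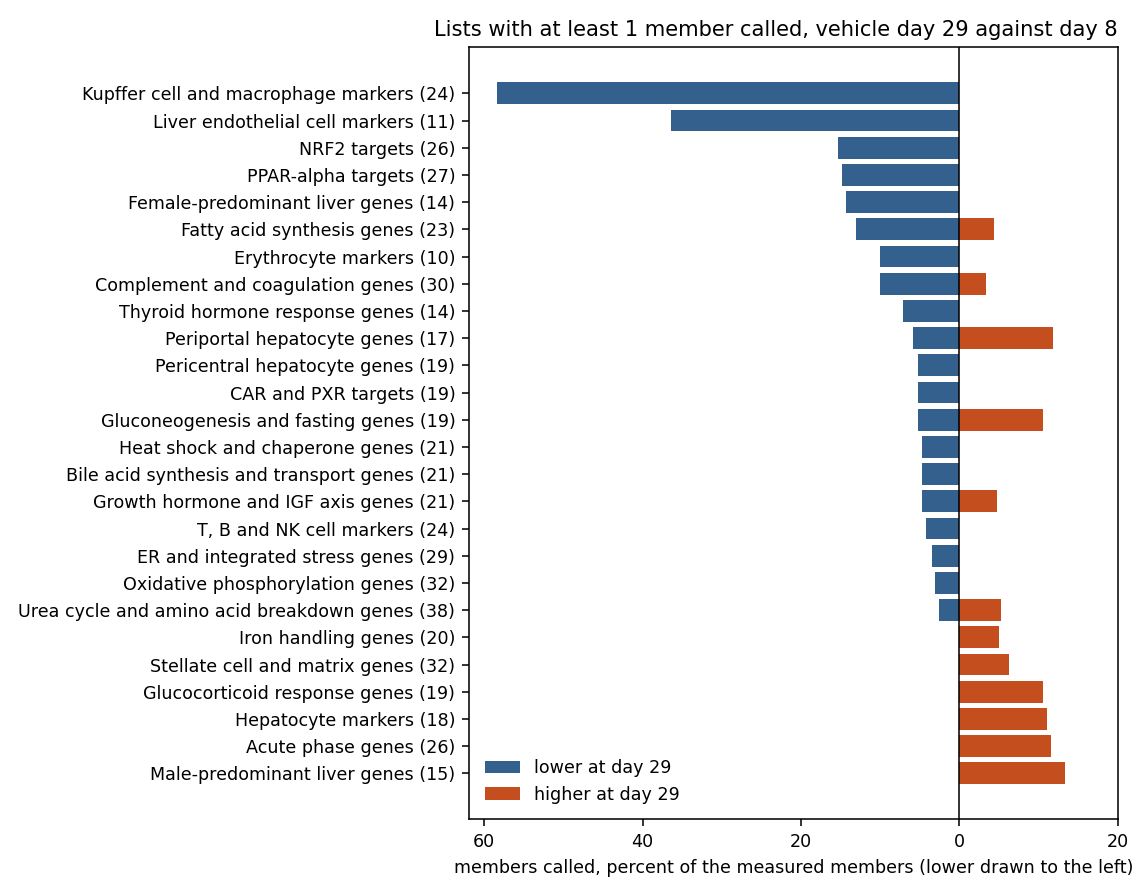
Percent of each list's measured members (number in parentheses) called lower (blue, drawn to the left) or higher (orange, drawn to the right) in vehicle day 29 against day 8, for the lists with at least 1 call. Kupffer cell and macrophage markers, with 14 of 24 lower, and endothelial markers, with 4 of 11 lower, stand at the top; over all clusters 1.77% were lower and 0.962% higher.

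The same interval was covered by separate animals given 2000 mg/kg PMCol, which share no animal with the vehicle groups. There 839 clusters (3.07%) changed, 514 higher (1.88%) and 325 lower (1.19%). After quantile normalization 304 were higher and 262 lower, and a fit of the animals given 2000 mg/kg alone gave 392 and 367. Of the 746 clusters called in the vehicle animals, 510 (68.4%) had the same sign in the 2000 mg/kg animals, against 53.6% of all clusters. The test called 69 in the same direction in both, 42 lower and 27 higher, and 7 in opposite directions.

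The 69 clusters included 34 named genes that were lower and 15 that were higher. Those that were lower included genes of fatty acid handling. Abcd2 fell by 1.17 in the vehicle and 0.91 in the 2000 mg/kg animals, Acsf2 by 0.93 and 0.96, Gpat3 by 0.82 and 0.82, Vnn1 by 0.67 and 0.55, and Elovl2 by 0.67 and 0.47. Dgat1, Mttp, Acot2, Acot5, Hadhb, Creb3l3, Hsd17b13, a lipid droplet enzyme, and Ech1, an isomerase of unsaturated fatty acid oxidation, fell in both as well. Of the 27 PPAR-alpha targets 15 fell in the 2000 mg/kg animals (1.19% of all clusters fell there) against 4 in the vehicle animals. The test of the difference between the intervals called 0 of the 27. The falls did not start from the same level. The mean of the list was 0.51 at day 8 and 0.05 at day 29 in the 2000 mg/kg animals. In the vehicle animals it was 0.10 and -0.13.

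Other falls in both were Snx10, a sorting nexin (0.80 and 0.87), Qpct, a glutaminyl cyclase (0.58 and 0.86), Cbr1 (0.46 and 0.83) and Hspd1, the mitochondrial chaperonin (0.31 and 0.36). Both measured clusters of Cbr1 and of Hspd1 fell in both. Among the rises, Stac3 rose by 1.78 and 1.40, Stox2 by 0.58 and 0.41, Apoa2 by 0.50 and 0.47, Mgat4b, an enzyme of N-glycan branching, by 0.43 and 0.40, Stat3 by 0.32 and 0.53, Btg1 by 0.27 and 0.24, and Rxra, the partner of PPAR-alpha and other nuclear receptors, by 0.19 and 0.18. Stac3 started lower under PMCol: at day 8 its 6 values ran from -2.80 to -2.11 in the 2000 mg/kg animals and from -0.87 to 0.79 in the vehicle animals.

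**Figure D5:**
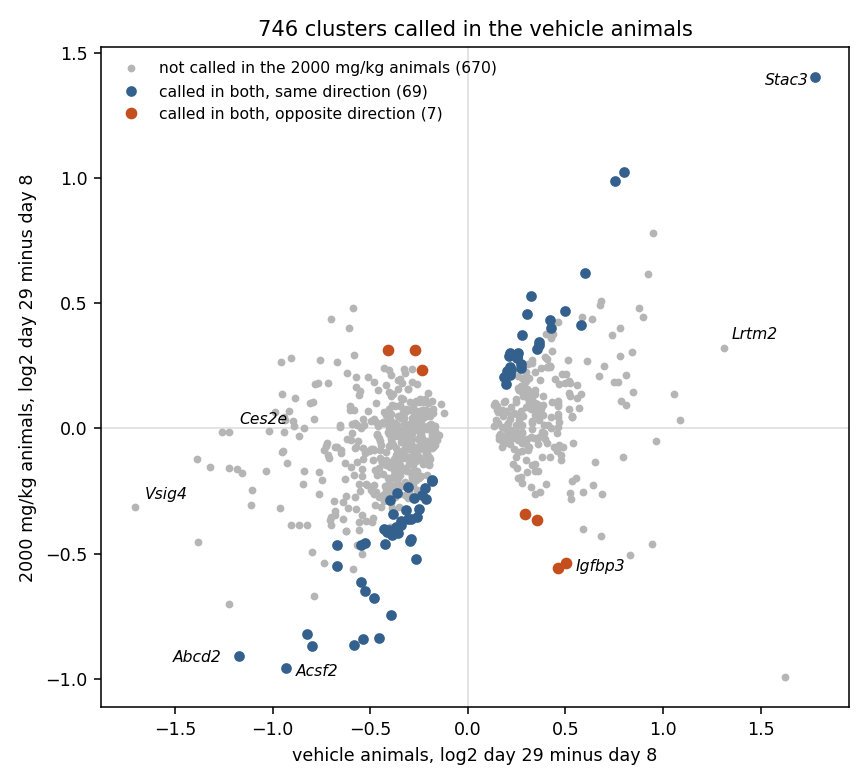
Log2 difference between day 29 and day 8 of the 746 clusters called in the vehicle animals, in the vehicle animals (horizontal axis) and in the 2000 mg/kg animals (vertical axis); blue marks the 69 called in both in the same direction and orange the 7 called in opposite directions. Abcd2 and Acsf2 lie at the lower left, Stac3 at the upper right, and Ces2e and Vsig4 far to the left near the horizontal line.

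The test of the difference between the intervals called 212 clusters (0.775%), 74 of them among the 746. It called 102 after quantile normalization and 563 without vehicle day 29 animal 2. Of the 23 genes named here that passed it, 15 passed after quantile normalization; Abcc3, Tuba4a, Tagln, Lbh, Dbp, Nfil3, Jun and Lrat did not. Ces2e differed most clearly: it fell by 1.22 in the vehicle animals and differed by -0.01 in the 2000 mg/kg animals, a difference between intervals of -1.21 ± 0.17 (adjusted p = 0.00175, limma). At 2000 mg/kg its values were 0.69 to 1.15 at day 8 and 0.87 to 0.97 at day 29, above every vehicle animal. Abcc3 followed the same course, with -0.95 against -0.09 (adjusted p = 0.0307, and 0.519 after quantile normalization, limma), and so did Tuba4a, with -0.90 against 0.03 (adjusted p = 0.0321, limma). For these 3 genes the vehicle animals were lower at day 29 than at day 8, and their distance from the 2000 mg/kg animals was larger at day 29.

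Ltc4s, the leukotriene C4 synthase, rose in the vehicle animals from a range of -0.07 to 0.17 at day 8 to 0.40 to 0.69 at day 29 (0.47 ± 0.06, adjusted p = 0.000259, limma) and differed by -0.07 in the 2000 mg/kg animals; the difference between intervals passed (adjusted p = 0.00535, limma). Adra2b, an adrenergic receptor, rose by 0.48 against -0.13, Klhl23 by 0.40 against -0.22, Lbh by 0.48 against -0.11, Snrpd1 by 0.64 against -0.23, Tat by 0.25 against -0.16 and Tagln by 0.37 against -0.25, and each passed that test. Ltc4s, Adra2b, Klhl23 and Lbh were chosen after their values had been seen.

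Genes called in opposite directions were Igfbp3 (0.50 in the vehicle, -0.54 in the 2000 mg/kg animals), Slc38a2, an amino acid transporter (0.46 and -0.56), Spry1, an inhibitor of growth factor signalling (0.36 and -0.37), Blmh (0.29 and -0.34), Lrp4 (-0.27 and 0.31) and Pigv (-0.24 and 0.23). The remaining cluster of the 7 has no gene symbol. In the 12 fits that left out 1 animal, the vehicle call held in 10 for Igfbp3, 9 for Spry1 and 11 for Pigv. It held in 6 for Slc38a2, 4 for Blmh and 3 for Lrp4. None of these named genes passed in the fit of the vehicle animals alone. Having been called in opposite directions, these genes were bound to differ between the intervals, so the test of that difference adds nothing for them. Igfbp1, another IGF carrier, differed by 0.74 (not called) and -1.44, with a difference between intervals of 2.18 ± 0.37 (adjusted p = 0.00458, limma). Dbp, a clock output gene, differed by -0.20 and 1.01, Nfil3 by 0.72 and -0.55, Jun by 0.88 and -0.88 and Lrat by 0.46 and -0.41, and for these 4 the difference between intervals passed although the vehicle interval did not.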

How the data were processed

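Each of 29 rat livers was hybridised to its own Affymetrix whole-transcript array, and the authors deposited a single table with 27342 transcript clusters. The deposited values were read as log2 from their range, and every cluster is centred on its median. PLIER and MAS5 are named, with no version, per the submitters' processing notes. Not given in the sources used here are the base of the log, the normalization between arrays and any offset; with an offset, the folds of dim genes are understated. Rounding of the stored values does not tell base 2 from the natural log, so fold changes hold if the base is 2.

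By the platform annotation 15097 clusters carried 1 gene symbol, 323 carried several and 11922 were without one; only the first are named, and 15067 of them were found in RefSeq's gene table of GRCr8. For the differences limma 3.58.1 (R 4.3.3) fitted a linear model of 5 groups to 29 animals, moderated by empirical Bayes, with two-sided p-values adjusted after Benjamini and Hochberg over all clusters of a comparison and a threshold of 0.05. Errors beside a difference are standard errors of this model. Each list member was read from a single cluster, taking one stored at 8 or more first and then the lowest probe number. Lists are described by counts and medians, with no set test.

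The comparison, the 38 gene lists and the genes named were chosen with earlier results of these data known. Named were the 25 largest called rises and the 25 largest called falls with a settled symbol, list members (preferably called) and a fixed set of liver genes; Mki67, of that set, had no cluster of its own. Genes given for both intervals or for the difference between intervals, and part of the uncalled list members, fall outside this rule and were picked with their values in view.

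On simulated data for this comparison over 27342 clusters, limma recovered 86% of changes of 0.5 and 100% of changes of 1 on the log2 scale. Among clusters given no change it called 10. The simulated noise was normal and independent between clusters and animals. Genes that vary together and an animal standing apart, like day 29 animal 2, were not simulated, so these shares do not carry over to the real data. The highest correlation between any 2 arrays was 0.73, so none looked deposited more than once. The number of arrays limits the precision. Alternatives covered normalization, the animals fitted, the clusters tested, moderation, array weights, the replicate number as a block and the threshold. The restriction to clusters marked as stored at 8 or more by the rounding of their values was added after seeing the data. So was the difference between intervals without vehicle day 29 animal 2. Slide and scan dates were not used here. Plots were drawn with matplotlib 3.10.9.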

Additional observations from a re-analysis of the deposited data

Results flagged for a closer look

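In a group of 6 animals a value is named here when its gap to the nearest other animal exceeds Dixon's 95% critical share of the group's range, which chance does in about 1 in 20 groups. Of 386 tests on the genes and lists of the text in the vehicle groups, 37 (9.59%) were of this kind, 22 of them day 29 animal 2.

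Animal 2 of day 29 stood above the rest of its group for the macrophage genes. Its centred log2 values were 1.08 for Vsig4, 0.82 for C1qb, 1.14 for Cd5l, 0.99 for Csf1r, 0.99 for Ctss, 0.89 for Cd163, 1.02 for Adgre1, 1.05 for Adgre4, 0.91 for Cfp, 0.84 for Ptgs1, 0.89 for Clec4f, 0.93 for C1qa, 0.61 for C1qc, 0.43 for Mrc1, 0.62 for Ptprc and 0.16 for Fcgr3a. It was also the high animal for Cd4 at 0.76, for Cdh5 at 0.25, for the mean of the macrophage list at 0.54 and for that of the T, B and NK cell list at 0.38. It was the low animal for Tsc22d3, a glucocorticoid-induced gene, at -0.23 and for Gstm2 at -0.39.

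Animal 1 of day 29 was the low one for Hadhb at -0.61, for Ghr at -0.36, for the mean of complement and coagulation genes at -0.034 and for that of vitamin E and vitamin K handling genes at -0.22, and the high one for the mean of pancreas, muscle, fat and mesothelium markers at 0.14. Animal 6 of day 29 was high for Spry1 at 0.74. At day 8, animal 3 was high for Ephx2 at 2.54, animal 4 for Dab1 at 0.87, animal 6 for Itgam at 0.45 and for Alas2 at 1.53, and animal 2 for Ehhadh at 0.15 and for Cdc20 at 0.48. Low at day 8 were animal 1 for Efna5 at -0.44, animal 5 for Cyp2b1 at -1.86 and animal 2 for Nr1d1 at -1.68.

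The change over the interval differed between the vehicle and the 2000 mg/kg animals, by limma's test of that difference, for 23 of the genes named; Igfbp3, Slc38a2, Spry1, Blmh, Lrp4 and Pigv were named for opposite calls in the intervals, which all but fixes this. The vehicle interval minus the 2000 mg/kg interval was -1.21 for Ces2e, -0.86 for Abcc3, -0.93 for Tuba4a, -1.005 for Folr2, -0.95 for Lilra5, -1.21 for Dbp, -0.58 for Lrp4 and -0.47 for Pigv. It was 0.87 for Snrpd1, 1.04 for Igfbp3, 1.27 for Nfil3, 1.76 for Jun, 0.41 for Tat, 2.18 for Igfbp1, 0.62 for Tagln, 0.87 for Lrat, 0.63 for Blmh, 0.72 for Spry1, 1.02 for Slc38a2, 0.53 for Ltc4s, 0.60 for Adra2b, 0.58 for Lbh and 0.62 for Klhl23.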

How the results depend on the processing

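With all 12 vehicle animals 746 clusters were called, 263 higher and 483 lower. The number moved by more than 1.5 times under these settings: 136 (54 higher, 82 lower) in a fit of the vehicle animals alone, 1773 (746 higher, 1027 lower) with array weights, 1374 (580 higher, 794 lower) without day 29 animals 1 and 2 together, 77 (31 and 46) at an adjusted p of 0.01, and 20 (5 and 15) with a 2-fold minimum. Leaving out 1 animal gave 254 to 2141 calls, 92 to 818 higher and 157 to 1323 lower, with the top of each range without day 29 animal 2. Clusters with 1 symbol alone gave 149 rises and 404 falls. Quantile normalization gave 744, centring of each array 744, the moderation settings 734 and 752, the clusters with the larger interquartile range 1041, and those with a stored signal of 8 or more 706. The share of rises went from 35.3% to 42.1% with array weights and 26.9% over clusters with 1 symbol; no scaling moved it by over 10 percentage points. The difference between intervals called 212 clusters, 102 after quantile normalization and 563 without day 29 animal 2. Between the 2000 mg/kg groups 514 rose and 325 fell, 304 and 262 after quantile normalization. The causes of these shifts were not tested.

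The replicate numbers did not pair the animals: the deviations of same-numbered vehicle animals correlated at -0.26 to 0.11. With the replicate number as a block, 799 clusters were called between the vehicle groups, 746 between the 2000 mg/kg groups and 224 in the difference.

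Of the 155 genes named, 103 were called. No named gene changed sign while called under any setting run. Of the 103, 43 kept their call in all 12 fits that left out 1 animal, 29 in the fit of the vehicle animals alone, and 25 in both. Signal over background was not used here.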

Other observations

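Few genes of mitochondrial respiration and nitrogen metabolism passed the test between the days. Over all clusters 1.77% were lower and 0.962% higher. Of 32 oxidative phosphorylation genes, Ndufs1, a core subunit of complex I, fell by 0.27 ± 0.07 and 0 rose; 23 of 32 differences were negative, with a median of -0.09. Without day 29 animal 2, 8 were lower (4.84% of all clusters), among them Ndufs4, Uqcrc1 and Uqcrb. Ndufa1 and Cox4i1 were higher in that fit (2.99% of all clusters). Of 38 genes of the urea cycle and amino acid breakdown, Nags, which makes the activator of the first step of the cycle, fell by 0.42 ± 0.10, and Arg1 and Tat rose. Of 30 complement and coagulation genes, F11, coagulation factor XI, rose by 0.31 ± 0.08, and Masp2, a protease of the lectin pathway, fell by 0.19 ± 0.05, as did Cfd, the complement protease factor D, by 0.32 ± 0.09, and C1qa.

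Of 17 periportal genes, Arg1 and Pigr, the receptor that carries immunoglobulin A into bile (0.16 ± 0.04), rose and Hsd17b13 fell by 0.21 ± 0.05. Of 19 pericentral genes, Rhbg was the 1 call, a fall. The shares over all clusters were 0.962% higher and 1.77% lower. In iron handling, Hamp was the 1 call among 20 genes, and Slc40a1, the iron exporter that hepcidin removes from the membrane, differed by -0.47 ± 0.15 and passed as lower without day 29 animal 2.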
